A study of Mus musculus with 35 samples.

Results

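The genes described here were 36 members of the antioxidant and glutathione systems, read in whole interscapular brown adipose tissue (iBAT) of mice kept in the cold. They were chosen by name and function, with earlier results of these data known, from superoxide dismutases, catalase, glutathione peroxidases, peroxiredoxins, thioredoxin and glutathione enzymes, glutathione transferases and the NRF2 pathway, and no threshold on a measured value was applied. Each of the 36 symbols matched 1 row of the count table, out of 55421 gene rows, of which 55154 could be paired with a symbol. The 36 were divided by role into 7 groups, and 31 of the 35 that were tested differed among the 7 groups of mice (edgeR quasi-likelihood F test over 35 mice), against 60.4% of all 12077 genes tested.

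The study followed gene expression in iBAT over a time course of cold exposure in male C57BL/6J mice aged 9 to 10 weeks. The 7 groups held 5 mice each: room temperature controls kept in the colony at 24 °C, and mice kept in an incubator at 6 °C for 6 hours or for 1, 2, 3, 4 or 5 days. No transgene, drug or other allele distinguished the groups, and each library came from an iBAT pad of a single mouse. The mice in the incubator lived alone in static cages without nesting material, so an effect of temperature and an effect of housing cannot be told apart. C57BL/6J mice are known to lack a working Nnt, a mitochondrial enzyme that makes NADPH, and all 7 groups share that background.

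Brown adipocytes burn fat in a dense mitochondrial network, and electrons that leave the respiratory chain there form superoxide. Superoxide dismutases turn superoxide into hydrogen peroxide, and catalase, glutathione peroxidases and peroxiredoxins turn the peroxide into water. The peroxidases are recharged by glutathione or by thioredoxin, which glutathione reductase and the thioredoxin reductases keep reduced with electrons from NADPH. Glutathione transferases attach glutathione to lipid aldehydes and other reactive compounds. The transcription factor NRF2 (gene Nfe2l2) is held low by KEAP1, and when released it raises many of these genes together, among them Hmox1, Srxn1, Gclm and Txnrd1.

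The libraries held 3846016 to 6047247 counts each, so that a library-scaled count of 1 (CPM, counts scaled to a common library size) stood for 3.85 to 6.05 reads before further normalization. Mitochondrially encoded genes took 33.6% to 46.2% of the counts and the single gene Gm42418 took 7.81% to 16.3%. All 10 markers of mature brown adipocytes were detected in every mouse. Their summed level was 16687 to 21251 CPM at room temperature and 26379 to 34069 CPM after 6 hours. Singly, 3 of the 10 were called higher and 1 lower after 6 hours (edgeR, described below), with a median log2 fold change of 0.02. The 4 luminal epithelial markers summed to at most 0.581 CPM in any mouse. Mouse 4 of the 1 day group gave the smallest library and stood apart for several of the genes below (Mgst3, Mgst1 and Txnip). Values without it are given there and for Txn1 and Txnrd1. CPM values below are normalized by the trimmed mean of M values (TMM). They are comparable between mice for 1 gene, and because the assay counts 3′ ends they were not used to rank genes against each other.

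After 6 hours of cold 12 of the 34 members tested were higher and 4 lower than at room temperature (edgeR quasi-likelihood test, with p adjusted over all genes tested by the Benjamini-Hochberg method and called below 0.05). Among all genes tested 21.5% were higher and 21% lower, 42.5% in either direction. After 1 day 9 of 33 members were higher and 12 lower (all genes 18.9% and 17.8%, in either direction 36.7%), and after 2 days 8 were higher and 11 lower of 33 (16.4% and 14.7%, together 31.2%). After 3 days 11 of 33 members were higher and 8 lower (18.3% and 15.5%, together 33.8%), and after 4 days 11 of 35 were higher and 10 lower (19.4% and 18.6%, together 38%). After 5 days 14 of 35 members were higher and 6 lower (20.2% and 18.6%, together 38.8%). Higher calls thus outnumbered lower ones at 6 hours and at 3, 4 and 5 days, and lower calls outnumbered higher ones at 1 and 2 days. Their median log2 fold changes were 0.01, -0.15, -0.03, 0.03, 0.04 and 0.14 in order of duration, beside medians of all genes between -0.03 and -0.01, so the list as a whole did not move far in either direction. Since every duration was set against the same 5 controls, the 6 comparisons depend on each other.

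Scaling by library size alone moved the median of all genes to between -0.25 and -0.15 on the log2 scale in these 6 comparisons, and the split of the members with it. On that scale 9 members were higher and 9 lower at 6 hours, 6 and 15 at 1 day, 7 and 15 at 2 days, 8 and 11 at 3 days, 10 and 11 at 4 days and 10 and 8 at 5 days. No value called with TMM scaling changed sign, and calls that were lost on that scale are named below. Genes that did not pass the filter on low counts were Nqo1 in all comparisons, Gstp1 at 6 hours to 3 days, and Hmox1 at 1 to 3 days.

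**Figure D1:**
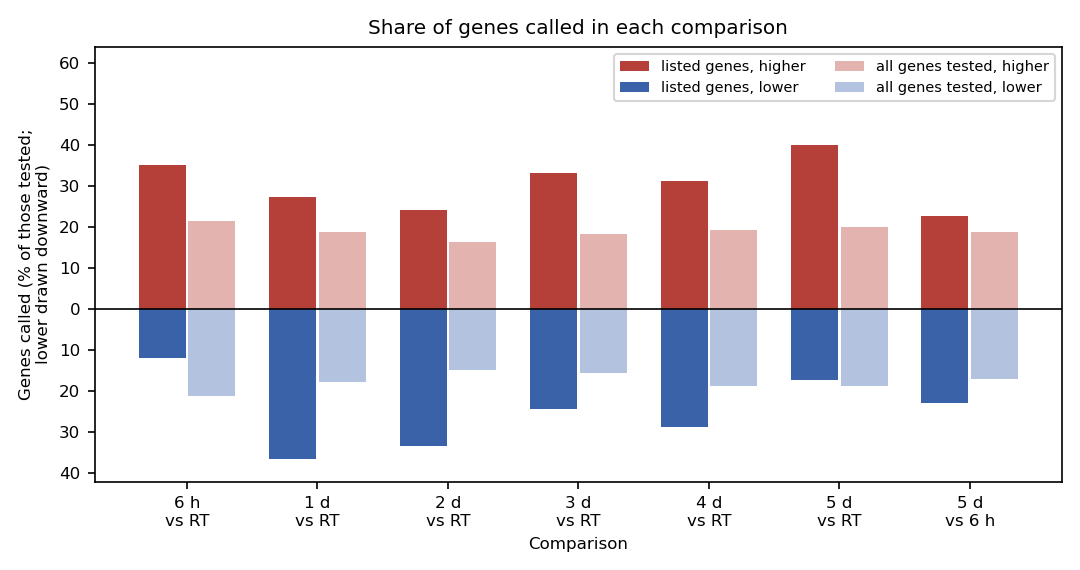
Share of the listed genes (dark bars) and of all genes tested (pale bars) called higher (red, upward) or lower (blue, downward) in each comparison, in percent of those tested. At 6 hours 35.3% of the listed genes were higher and 11.8% lower, and at 1 day 27.3% were higher and 36.4% lower.

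**Figure D2:**
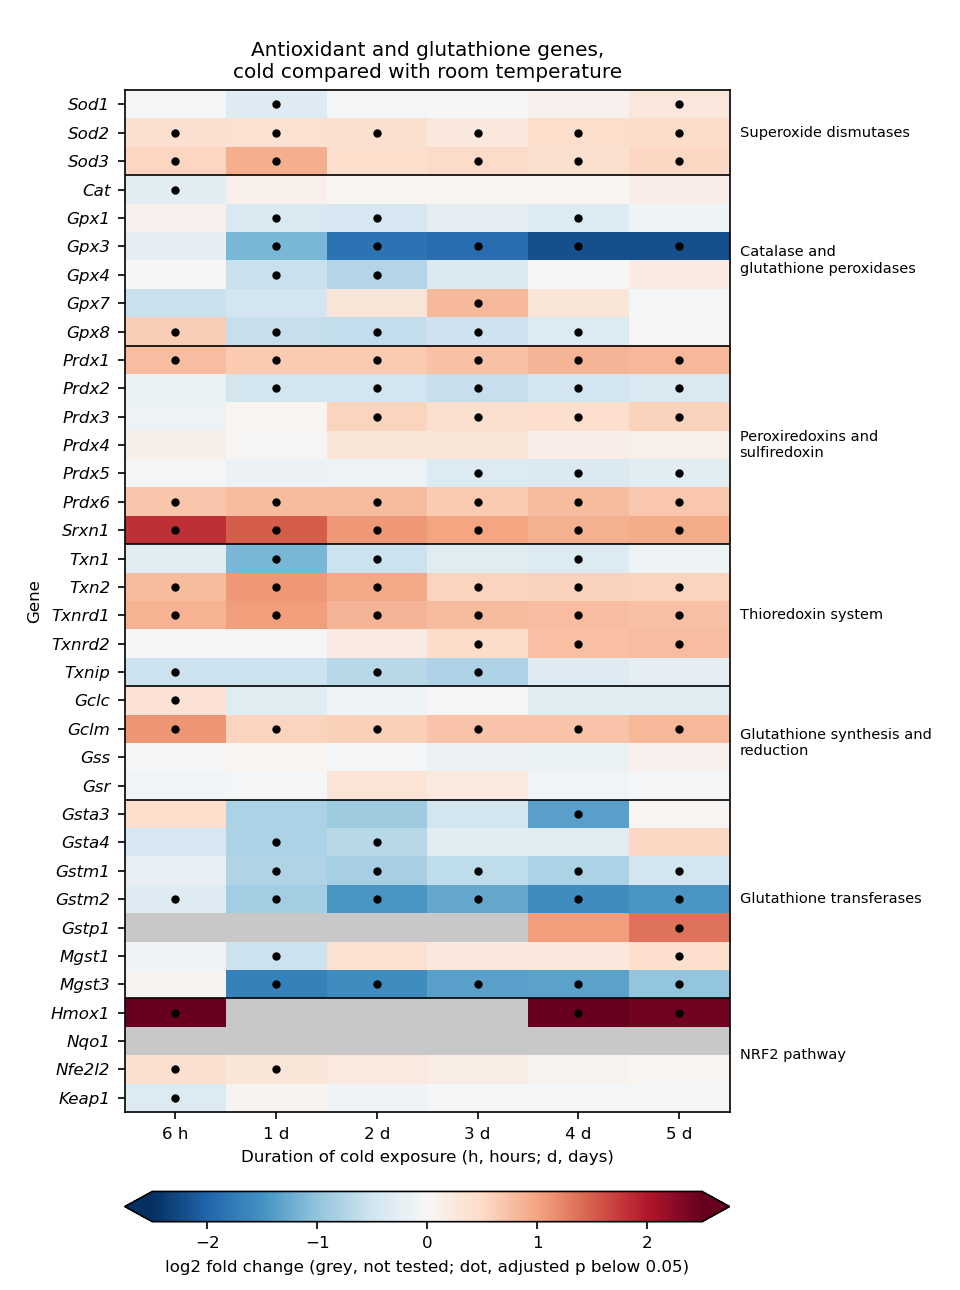
Log2 fold changes against room temperature for the 36 genes (rows, by role) at 6 durations of cold (columns). A dot marks an adjusted p below 0.05, grey was not tested, and the colour scale ends at 2.5 in either direction, which Hmox1 exceeded at 6 hours and at 4 days. Dots stand on red at all 6 durations for 7 genes (Sod2, Prdx1, Prdx6, Srxn1, Txn2, Txnrd1 and Gclm), and on blue at all 6 for Gstm2.

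Over the 6 durations 7 members were higher than control at each one: Sod2, Prdx1, Prdx6, Srxn1, Txn2, Txnrd1 and Gclm. Gstm2 was lower at each one. Members called in both directions numbered 3 (Sod1, Gpx8 and Mgst1), 15 were called only higher and 14 only lower, and Prdx4, Gss, Gsr and Nqo1 were called at none. An absolute log2 fold change of at least 1 was reached with a call by 11 members, which are given mouse by mouse below. The matching shares of all genes are not given here, and the 6 comparisons share the same 5 controls. How unusual these counts over durations are was therefore not tested. Markers of other cell types moved over the same durations. The summed level of 6 endothelial markers, all detected in every mouse, was 264 to 328 CPM at room temperature. It was 442 to 544 CPM at 6 hours and 523 to 615 CPM at 1 day, both without overlap with room temperature. At 5 days it was 232 to 394 CPM. Singly, 2 of the 6 markers were called higher and 1 lower at 6 hours. At 1 day 4 were higher and none lower, and at 5 days none was higher and 1 lower. Their part in the members' values was not tested. In whole tissue, fewer cells of a type and less RNA per cell cannot be told apart, so every change below is one of the tissue.

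Of the NRF2 pathway genes, Hmox1 (ENSMUSG00000005413, chr8:75093621-75100589, + strand, GRCm38), which encodes the enzyme that breaks down heme, had the largest change of all members. Its level in the 5 control mice was 1.16, 0.779, 0.873, 1.32 and 0.546 CPM, from 3 to 8 counts. After 6 hours the 5 mice gave 24.4, 33.6, 15.9, 17.3 and 14.1 CPM. The lowest cold mouse was far above the highest control, and the change was 21.4-fold (log2 fold change 4.42, SE 0.32, adjusted p = 7.85e-09). By 1 day the values were back to 0.559, 1.15, 1.44, 2.05 and 3.91 CPM, which overlapped the controls, and at 2 days they were 6.82, 2.56, 1.8, 0.79 and 1.45 CPM. Hmox1 did not pass the count filter at these durations. An exact two-sided permutation test gave p = 0.175 at 1 day and p = 0.0476 at 2 days, and at 3 days, when all 5 mice lay above the controls, p = 0.00794, the smallest that a comparison of 5 against 5 can give.

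Hmox1 was higher again late in the cold, with 10.5, 10.4, 3.81, 4.02 and 3.61 CPM at 4 days and 7.54, 4.35, 4.59, 5.12 and 4.19 CPM at 5 days. All 10 of these mice were above every control (log2 fold change 2.75, SE 0.42, adjusted p = 7.97e-05 at 4 days, and 2.41, SE 0.33, adjusted p = 1.71e-05 at 5 days). Macrophages, which take up and break down red cells, also express Hmox1, and the summed level of 12 macrophage markers differed between these groups. It was 91.7 to 222 CPM at room temperature, 112 to 128 CPM at 6 hours, 124 to 623 CPM at 4 days and 140 to 512 CPM at 5 days. Of the macrophage markers tested, 0 of 10 were higher and 1 lower at 6 hours (edgeR, adjusted p below 0.05), and 6 of 11 were higher and none lower at 5 days.

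Within groups Hmox1 and the macrophage signal did not always go together. At 2 days mouse 1 had the most of both, with 6.82 CPM of Hmox1 and a marker sum of 664 CPM. At 3 days mice 1 and 3 had sums of 795 and 617 CPM with Hmox1 at 5.38 and 6.25 CPM. Mouse 2 of the 3 day group had the least of both, 194 and 1.65 CPM. Mice 4 and 5 there had sums of 493 and 294 CPM with Hmox1 at 2.9 and 5.67 CPM. At 4 days the 2 mice with the highest Hmox1 had sums of 539 and 623 CPM, but mouse 3 had a sum of 539 CPM with only 3.81 CPM of Hmox1. Mice 4 and 5 of that group had sums of 124 and 134 CPM, within the range of the controls, and their Hmox1 was still 4.02 and 3.61 CPM, above every control. At 5 days mouse 5 had the highest sum, 512 CPM, and the lowest Hmox1, 4.19 CPM. Mouse 1 of the 5 day group had the highest Hmox1, 7.54 CPM, with a sum of 411 CPM. At 6 hours the marker sums lay within the control range in all 5 mice, and at least 11 of the 12 markers were detected in each mouse of every group. The part of macrophages in the later values was not tested.

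**Figure D3:**
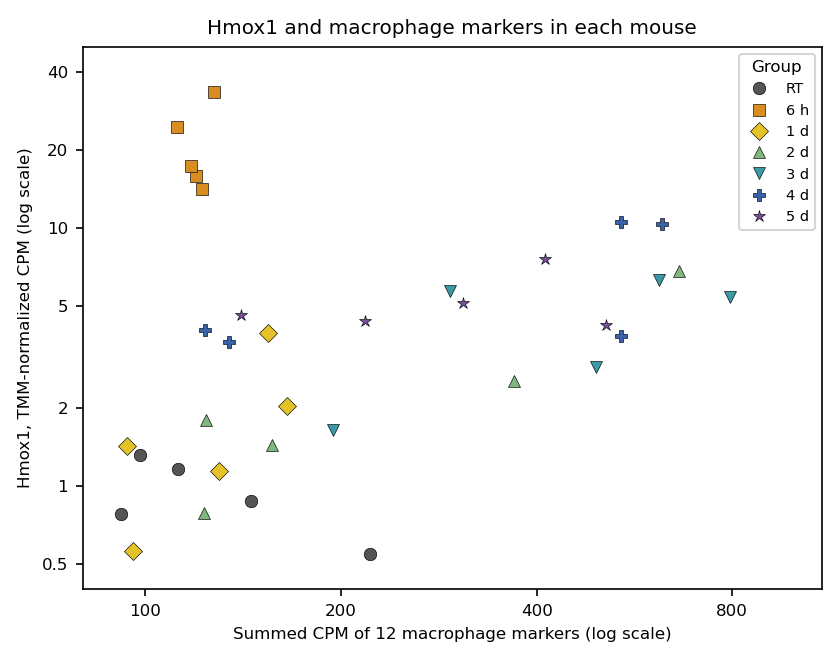
Hmox1 (TMM-normalized CPM, vertical log axis) against the summed CPM of 12 macrophage markers (horizontal log axis) in each of the 35 mice, by group. The 5 mice at 6 hours (squares) stand at the top left, at 14.1 to 33.6 CPM of Hmox1 with marker sums of 112 to 128 CPM, while mice at 2 to 5 days reach sums of up to 795 CPM.

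Nqo1 (ENSMUSG00000003849, chr8:107388225-107403206, - strand), a quinone reductase and a classical NRF2 target, was barely detected. The controls had 4, 1, 3, 3 and 4 counts and the 6 hour mice 0, 1, 0, 0 and 0. The exact permutation test gave p = 0.0159 for this pair of groups, with 4 of 5 cold mice at 0, where a count of 0 still allows 3 counts. In the other groups the counts were 1 to 8, and the exact permutation p against control was between 0.0794 and 0.905. At such counts no fold is given. Nqo1 thus had its lowest counts at the duration where Hmox1 had its highest.

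Nfe2l2 itself (ENSMUSG00000015839, chr2:75675513-75704641, - strand) rose modestly and early. The controls had 65.1, 64.1, 72.2, 62.5 and 62.1 CPM. After 6 hours the values were 85.1, 84.3, 98.2, 79.7 and 90.3 CPM, all above the highest control (log2 fold change 0.41, SE 0.09, adjusted p = 0.00176). The mean then went through 80.1 ± 9.32 (SD, n = 5) at 1 day, 77.5 ± 7.59 at 2 days, 74.1 ± 5.61 at 3 days and 69.1 ± 4.62 at 4 days to 67.5 ± 4.83 CPM at 5 days. The 1 day value passed the test (0.30, SE 0.10, adjusted p = 0.0335) and the later ones did not (adjusted p from 0.0784 to 0.744). The 6 hour call was lost on scaling by library size alone (0.22), and the 1 day call was lost there, without the count filter, and in 7 of 10 fits that left out a mouse.

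Keap1 (ENSMUSG00000003308, chr9:21229730-21239361, - strand), the adaptor that sends NRF2 to degradation, had 65.1, 60, 65.5, 63.8 and 57 CPM in the controls. After 6 hours it had 58.1, 51.7, 36.3, 48.2 and 55.7 CPM. Of these, 4 were below the lowest control, and the fall was 1.26-fold (log2 fold change -0.34, SE 0.12, adjusted p = 0.0283), a call that was lost in 5 of 10 fits without a mouse. From 1 to 5 days its log2 fold changes were between -0.08 and 0.06, with standard errors of at most 0.10. A transcript on the opposite strand, Gm16754, shares 11.9% of the 76-base words at the 3′ end of Keap1, and the strand setting of the counting is not given in the sources used here.

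NRF2 binds the antioxidant response element, whose core can be written TGACNNNGC. In windows from 250 bases before to 50 after the annotated starts (RefSeq, GRCm38.p6), this pattern was present on either strand in 12.4% of 32851 windows of all genes and in 8 of 37 windows of the members (21.6%). Counted by gene, it was found in 8 of the 30 members with a window (26.7%) and in 14% of 27025 genes. The same letters also occur in sites of AP-1 and MAF proteins, so a match is only a description of the sequence. The 5 members that had the pattern and were higher at 6 hours are shown, each on the strand of its gene with the matching bases in capitals.
Srxn1, chr2:152105542-152105570: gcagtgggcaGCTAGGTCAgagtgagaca
Gclm, chr3:122245413-122245441: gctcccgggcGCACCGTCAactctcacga
Txnrd1, chr10:82859104-82859132: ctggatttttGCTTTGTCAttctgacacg
Prdx1, chr4:116685456-116685484: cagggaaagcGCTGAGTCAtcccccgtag
Nfe2l2, chr2:75704885-75704913: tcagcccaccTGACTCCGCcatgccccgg
The match lay 134 bases before the start in Gclm, 133 in Prdx1, 92 in Txnrd1 and 240 in Nfe2l2, and 28 bases after it in Srxn1; the other members with a match were Sod1, Mgst1 and Gsta3. Of these 8 members 5 were higher and none lower at 6 hours. Of the 22 with a window but no match 3 were higher and 4 lower. Of the 6 without a window (Sod3, Prdx6, Gclc, Gsr, Gsta4 and Hmox1) 4 were higher. Among all genes tested, with or without the pattern, 21.5% were higher and 21% lower. At 1 day the 8 included 5 higher and 2 lower genes, and the 22 included 2 higher and 9 lower (all genes 18.9% and 17.8%). At 2 days the counts were 4 and 0 of the 8 and 3 and 10 of the 22 (16.4% and 14.7%). At 3 days they were 4 and 0, and 5 and 8 (18.3% and 15.5%). At 4 days they were 4 and 1, and 4 and 9 (19.4% and 18.6%). At 5 days the counts were 6 and 0 of the 8 and 5 and 6 of the 22 (20.2% and 18.6%). Calls of all genes with the pattern are not given here. The pattern was not tested against the calls.

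Among the superoxide dismutases, Sod2, the mitochondrial manganese enzyme, was higher at all 6 durations by a nearly constant amount. Its mean was 467 ± 37.5 CPM (SD, n = 5) at room temperature and between 561 and 646 CPM in the cold groups. The log2 fold changes were 0.40, 0.38, 0.40, 0.27, 0.45 and 0.46 in order of duration, with adjusted p from 0.000825 at 4 days to 0.0269 at 3 days. Every cold mouse but 1 of the 1 day group lay above the highest control in its comparison. These are small changes, and 5 of the 6 calls (all but that at 4 days) were lost when the counts were scaled by library size alone, and the 3 day call also in 3 of 10 fits without a mouse.

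Sod3, the secreted enzyme bound to the cell surface and matrix, was higher at all durations but 2 days. It went from 61.9 ± 14.5 CPM at room temperature to 91.4 ± 13.1 at 6 hours and 116 ± 24.2 CPM at 1 day, when all 5 mice were above the controls (log2 fold change 0.91, SE 0.17, adjusted p = 0.000421). At 2 days it was 0.45 (SE 0.18, adjusted p = 0.0714), and at 3 to 5 days it was between 0.41 and 0.51. The 4 day call was lost in 3 of 10 fits without a mouse, and the 4 and 5 day calls on scaling by library size alone (0.27 and 0.28). Sod1, the cytosolic copper and zinc enzyme, was called in opposite directions at 2 durations. It fell at 1 day (log2 fold change -0.32, SE 0.10, adjusted p = 0.0151), from 543 ± 43.4 to 435 ± 33.6 CPM with all 5 mice below the lowest control, and it was higher at 5 days at 662 ± 64.3 CPM (0.28, SE 0.10, adjusted p = 0.0313). Without the count filter neither call of Sod1 was kept, and the 5 day call was also lost in 5 of 10 fits without a mouse and on scaling by library size alone.

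Of catalase and the 5 glutathione peroxidases, Gpx3 (ENSMUSG00000018339, chr11:54902453-54910377, + strand), the secreted plasma form, fell furthest. The controls had 1039, 1465, 1439, 1359 and 1095 CPM. After 6 hours the values were 1125, 963, 1078, 1183 and 1171 CPM, which overlapped them (log2 fold change -0.23, SE 0.11, adjusted p = 0.0891). After 1 day they were 485, 562, 625, 633 and 602 CPM, all 5 below the lowest control (-1.14, SE 0.12, adjusted p = 2.19e-06). Gpx3 was thus first called at 1 day.

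At 2 days Gpx3 was at 324, 301, 278, 620 and 277 CPM, with mouse 4 well above the other 4. The log2 fold change there was -1.84 (SE 0.21) and would be -2.12 without that mouse. At 4 days the mice had 267, 302, 355, 237 and 237 CPM and at 5 days 245, 376, 258, 256 and 273 CPM, 4.58-fold and 4.56-fold below control (log2 fold change -2.19 and SE 0.14 at both, adjusted p = 9.52e-09 and 3.17e-09). The highest mouse at 4 or 5 days was far below the lowest control. The means of 3, 4 and 5 days (341 ± 64.7, 280 ± 50 and 281 ± 53.9 CPM) lay within each other's spread.

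The intracellular peroxidases moved less. Gpx1, the abundant cytosolic form, was lower at 1, 2 and 4 days (log2 fold change -0.38, -0.43 and -0.34) from 497 ± 28.3 CPM in the controls. Its 2 day call was lost in 3 of 10 fits without a mouse and its 4 day call with all groups in a single fit. Gpx4, the form that reduces lipid peroxides in membranes, was lower at 1 and 2 days (-0.55, SE 0.15, adjusted p = 0.0104, and -0.73, SE 0.13, adjusted p = 0.000605) and was at 42.1 ± 5.88 and 48.1 ± 3.73 CPM at 4 and 5 days beside 41.8 ± 5.9 CPM in the controls. Its level is uncertain, since 79.5% of the words at its 3′ end also occur in other loci, among them the pseudogene Gpx4-ps2.

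Gpx8, a peroxidase of the endoplasmic reticulum, was the only member of its group higher at 6 hours and turned with duration. It rose from 53.8 ± 9.01 to 84.3 ± 12.2 CPM at 6 hours with no overlap (log2 fold change 0.62, SE 0.12, adjusted p = 0.000608). At 1 to 4 days it was lower (-0.57, -0.61, -0.52 and -0.34), and at 5 days it was at 55.5 ± 10.9 CPM. The lower calls at 2, 3 and 4 days were lost in 4, 7 and 5 of 10 fits without a mouse. Gpx7, a related enzyme of the same compartment, was called only at 3 days, at 7.42 ± 2.57 beside 4.26 ± 1.57 CPM (0.81, SE 0.29, adjusted p = 0.0375), a call lost in 7 of 10 of those fits.

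Cat, the peroxisomal catalase, was lower at 6 hours alone, at 180 ± 16.5 beside 214 ± 18.1 CPM (log2 fold change -0.27, SE 0.09, adjusted p = 0.0276), and that call was lost in 4 of 10 fits. Red cells carry much catalase, Prdx2 and Gpx1, and the summed level of 6 erythroid markers, 1827 to 2344 CPM in the controls, was 2220 to 3986 CPM at 6 hours, 2500 to 4517 CPM at 1 day and 2701 to 5005 CPM at 5 days. None of the 3 genes was called higher than control at any duration. The part of red cells in their values was not tested.

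The peroxiredoxins split by member. Prdx1, a cytosolic form, and Prdx6, the form with phospholipase activity that uses glutathione, were higher at all durations with no cold mouse within the control range. Prdx1 went from 266 ± 33 CPM to between 420 and 480 CPM (log2 fold changes 0.77, 0.66, 0.66, 0.74, 0.85 and 0.83, adjusted p from 7.53e-06 to 0.000682). Prdx6 went from 158 ± 15.2 CPM to between 248 and 275 CPM (0.69, 0.80, 0.78, 0.66, 0.79 and 0.67, adjusted p from 1.04e-05 to 9.28e-05). For neither gene did 5 days differ from 6 hours by the test (log2 fold change 0.06 and -0.01, SE 0.10 each).

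Prdx3, the mitochondrial peroxiredoxin, came later. It was at 76.7 ± 11.3 CPM at 6 hours and 85.5 ± 17.7 CPM at 1 day beside 82.5 ± 3.71 CPM in the controls, and neither value passed the test (adjusted p = 0.364 and 0.783). From 2 days on it was higher, at 122 ± 17.2, 109 ± 13.4, 110 ± 7.68 and 123 ± 13.3 CPM, with every mouse above the controls (log2 fold changes 0.55, 0.41, 0.42 and 0.57, adjusted p from 0.000171 to 0.005).

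Prdx2, the other main cytosolic form, was lower from 1 day on, by 0.38 to 0.57 on the log2 scale, with all 25 mice of these groups below the lowest control. Its exons overlap those of Junb and Rnaseh2a on the opposite strand, and 13.6% of its 3′ words are shared, so reads of Prdx2 and Junb cannot be told apart if they were counted without strand. Prdx5, found in mitochondria, peroxisomes and cytosol, was lower from 3 to 5 days (-0.33, -0.37 and -0.28, adjusted p from 0.0103 to 0.026), the 5 day call being lost in 5 of 10 fits without a mouse and without the count filter. Prdx4, the form of the endoplasmic reticulum, was called at no duration: its means were 7.5 to 9.36 CPM, and its log2 fold changes were 0.03 to 0.30 with standard errors of 0.16 to 0.21.

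Srxn1 (ENSMUSG00000032802, chr2:152105516-152111376, + strand), the sulfiredoxin that repairs overoxidized peroxiredoxins, had the next largest rise at 6 hours after Hmox1. The controls had 24.8, 16.7, 13.1, 14.7 and 21.5 CPM and the 6 hour mice 66.5, 68.6, 65.5, 56 and 69.1 CPM. The lowest cold mouse was above the highest control (3.53-fold, log2 fold change 1.82, SE 0.15, adjusted p = 4.01e-08). After 1 day the values were 45.7, 42.6, 53.5, 66.2 and 51.1 CPM (1.51, SE 0.17, adjusted p = 4.19e-06), and after 5 days 38.8, 31.1, 33, 33.1 and 37.9 CPM (0.93, SE 0.16, adjusted p = 0.000154). At no duration did a cold mouse fall within the control range. The means at 2 to 5 days, 38.8, 35.8, 33.6 and 34.8 CPM with SDs of 3.37 to 6.96, did not differ beyond their spread.

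In the thioredoxin system the mitochondrial and cytosolic thioredoxins went in opposite directions at 1 day. Txn2 (ENSMUSG00000005354, chr15:77915047-77929006, - strand), the mitochondrial form, had 166, 140, 146, 142 and 138 CPM in the controls and 241, 251, 274, 258 and 258 CPM at 6 hours. At 1 day it had 291, 311, 320, 327 and 297 CPM. These 10 cold mice lay above all controls, and the 1 day mice also above all the 6 hour mice (log2 fold change 0.79, SE 0.09, adjusted p = 1.21e-06 at 6 hours, and 1.08, SE 0.09, adjusted p = 2.28e-07 at 1 day). The mean was 288 ± 24.2 CPM at 2 days and then 214 ± 31.9, 218 ± 22.1 and 215 ± 20 CPM, still above control with log2 fold changes of 0.55 to 0.57.

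Txn1 (ENSMUSG00000028367, chr4:57943373-57956411, - strand), the cytosolic form, had 63.3, 92.5, 68.7, 64.5 and 82.2 CPM in the controls and 66.5, 48.4, 59.2, 48 and 85.1 CPM at 6 hours. After 1 day the mice had 33.5, 32.3, 49, 19.7 and 33.4 CPM. Only at 1 and 2 days were all 5 mice below the controls (-1.14, SE 0.18, adjusted p = 0.000137, and -0.55, SE 0.12, adjusted p = 0.00293). Without mouse 4 of the 1 day group the 1 day value was -0.99, still called. Txn1 was back at 69 ± 13.9 CPM by 5 days (-0.11, SE 0.14, adjusted p = 0.568). A call at 4 days (-0.33, adjusted p = 0.0328) was lost in 5 of 10 fits without a mouse.

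Txnrd1 (ENSMUSG00000020250, chr10:82833951-82897712, + strand), the cytosolic thioredoxin reductase and a selenoprotein, had 48.4, 52.4, 54.8, 55.1 and 48.4 CPM in the controls. It had 91.2, 93.1, 104, 102 and 89 CPM at 6 hours and 92.2, 107, 107, 125 and 107 CPM at 1 day. No cold mouse of any duration reached down to the controls, the closest being a 5 day mouse at 68.3 CPM. The log2 fold change was 0.87 (SE 0.09, adjusted p = 8.22e-07) at 6 hours, 1.05 (SE 0.10, adjusted p = 9.25e-07) at 1 day and 0.74 (SE 0.11, adjusted p = 6.02e-05) at 5 days. Without mouse 4 of the 1 day group the 1 day value was 0.999, still called. At 1 day the reductase transcript was therefore higher while that of its substrate Txn1 was lower.

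Txnrd2, the mitochondrial reductase, was higher only from 3 days (log2 fold change 0.45, 0.75 and 0.76 at 3, 4 and 5 days). At 4 and 5 days every mouse was above the controls, at 49.1 ± 3.38 and 49.7 ± 4.79 CPM beside 29.2 ± 5.42 CPM (adjusted p = 0.000134 and 0.000136), whereas the 3 day call was lost in 5 of 10 fits without a mouse. Txnip, which binds and inhibits thioredoxin and is raised by glucose, was lower at 6 hours, 2 days and 3 days (-0.53, -0.69 and -0.77, adjusted p = 0.0141, 0.00804 and 0.00497) from 568 ± 151 CPM, although the mice overlapped at each duration. At 1 day mouse 4 had 152 CPM and the other 4 mice 434 to 467 CPM, and the value was not called (-0.54, SE 0.24, adjusted p = 0.0955, and -0.33 without that mouse). The 6 hour call was lost with all groups in a single fit.

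**Figure D4:**
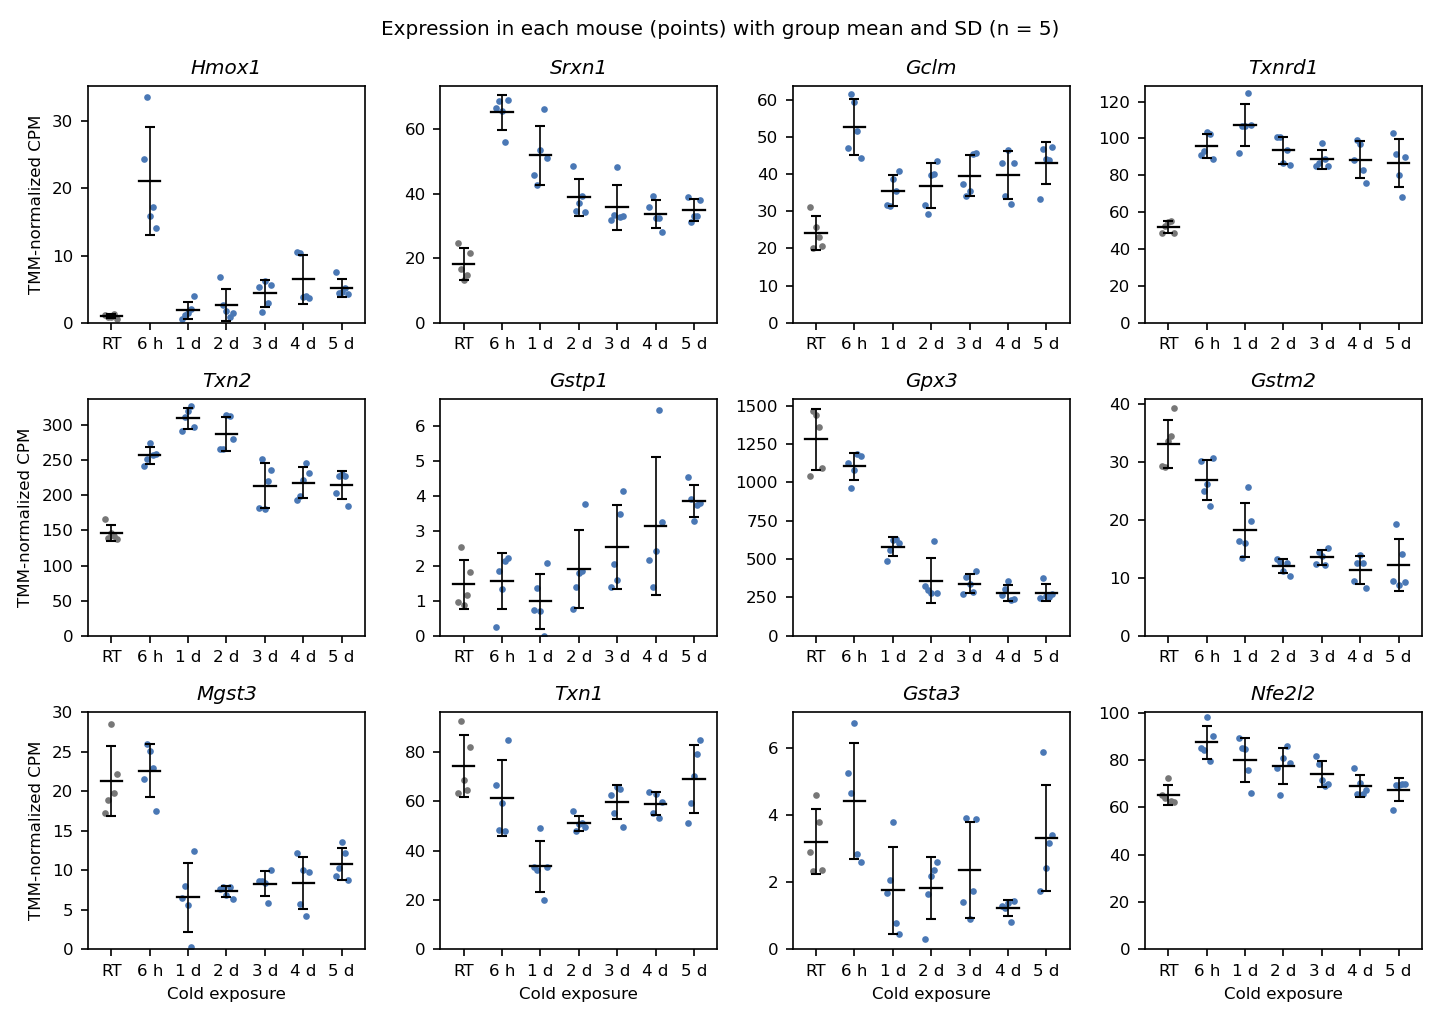
TMM-normalized CPM in every mouse (points) with the group mean (bar) and SD (whiskers, n = 5) for the 11 genes that reached an absolute log2 fold change of 1 with a call, and for Nfe2l2. Each vertical axis starts at 0 and has its own range. Hmox1 stands at 14.1 to 33.6 CPM at 6 hours alone, Txn1 has its lowest values at 1 day, and Gpx3, Gstm2 and Mgst3 stay below the controls from 1 day on.

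For glutathione itself, the modifier subunit of the rate-limiting ligase was higher throughout and its catalytic partner only early. Gclm (ENSMUSG00000028124, chr3:122245557-122270732, + strand), the modifier subunit, had 31.2, 20.1, 25.8, 23.1 and 20.7 CPM in the controls. It had 47, 61.6, 59.4, 51.5 and 44.4 CPM at 6 hours, with no overlap (2.16-fold, log2 fold change 1.11, SE 0.14, adjusted p = 4.52e-06). It was higher at each later duration too, with log2 fold changes of 0.56, 0.60, 0.72, 0.72 and 0.83, and at 5 days the mice had 33.4, 46.8, 44.1, 43.9 and 47.3 CPM. The 1 day call was lost on scaling by library size alone (0.34). Gclm overlaps another gene model, Gm6061, on its own strand.

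Gclc, the catalytic subunit, was higher at 6 hours only, at 24 ± 2.11 beside 18.4 ± 3.1 CPM (log2 fold change 0.36, SE 0.13, adjusted p = 0.038). That call was lost in 6 of 10 fits without a mouse and under 3 other settings. Gss, which adds glycine in the last step, and Gsr, which reduces oxidized glutathione with NADPH, passed the test at no duration. The log2 fold changes of Gss were between -0.18 and 0.11 with standard errors of 0.15 to 0.21, and those of Gsr between -0.08 and 0.35 with standard errors of 0.17 to 0.23. Their group means were 8.12 to 11.9 CPM.

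Of the glutathione transferases tested, 1 of 6 was lower at 6 hours, 5 of 6 at 1 day, 4 of 6 at 2 days, 3 of 6 at 3 days, 4 of 7 at 4 days and 3 of 7 at 5 days, while higher calls, 2 in all, came at 5 days alone. Among all genes tested 21%, 17.8%, 14.7%, 15.5%, 18.6% and 18.6% were lower in order of duration, and 20.2% were higher at 5 days. The 6 hour count of transferases was near that share. Gstm2 (ENSMUSG00000040562, chr3:107981702-107986453, - strand), a cytosolic transferase of the mu class, had 29.4, 29.2, 33.6, 34.5 and 39.3 CPM in the controls and 30.2, 25, 26.2, 22.5 and 30.7 CPM at 6 hours. It had 16.4, 13.5, 16, 25.6 and 19.8 CPM at 1 day and 13.3, 12.8, 11.2, 12.6 and 10.4 CPM at 2 days. All mice from 1 day on were below the lowest control, and those at 2 to 5 days had means of 11.4 to 13.6 CPM. The log2 fold change was -0.87 (SE 0.16, adjusted p = 0.000387) at 1 day, -1.46 (SE 0.13, adjusted p = 9.64e-07) at 2 days and -1.54 (SE 0.15, adjusted p = 9.06e-07) at 4 days, a 2.91-fold loss. The 6 hour value (-0.32, adjusted p = 0.0426) overlapped the controls and lost its call in 6 of 10 fits without a mouse.

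Mgst3 (ENSMUSG00000026688, chr1:167371966-167393841, - strand), a microsomal transferase with peroxidase activity, had 17.2, 18.9, 28.6, 19.8 and 22.2 CPM in the controls and 21.5, 25.9, 25.1, 22.9 and 17.5 CPM at 6 hours. At 1 day it had 6.52, 8.02, 5.57, 0.256 and 12.4 CPM. All 5 were below the controls, and mouse 4 held a single count of Mgst3 where the others held 31 to 54. The log2 fold change was -1.69 (SE 0.36, adjusted p = 0.0014), and -1.40 without that mouse. At 2 days the values were 7.57, 7.91, 6.85, 7.9 and 6.36 CPM (-1.54, SE 0.17, adjusted p = 5.33e-06), and at 5 days 9.26, 10.2, 13.5, 12.2 and 8.79 CPM (-0.98, SE 0.17, adjusted p = 0.000163). The 6 hour mice were within the range of the controls and the mice of all later groups were below it.

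Gstm1, the neighbour of Gstm2 on chromosome 3, was lower from 1 to 5 days (log2 fold changes -0.74, -0.83, -0.64, -0.80 and -0.46) from 104 ± 18.6 CPM. The 5 day call was lost in 6 of 10 fits without a mouse, and 17.9% of the 3′ words of Gstm1 are shared with Gstm3 and pseudogenes. Gsta4, an alpha-class enzyme that acts on the lipid aldehyde 4-hydroxynonenal, was lower at 1 and 2 days (-0.78, SE 0.18, adjusted p = 0.0031, and -0.69, SE 0.22, adjusted p = 0.0271), the 2 day call being lost in 3 of 10 fits without a mouse. At 5 days it was at 20.1 ± 6.76 beside 14.1 ± 2.53 CPM, which did not pass (0.51, SE 0.21, adjusted p = 0.0621).

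Mgst1, the main microsomal form, was called in both directions. At 1 day 4 mice had 131 to 137 CPM and mouse 4 had 65.7 CPM, beside 174 ± 28.2 CPM in the controls (log2 fold change -0.54, SE 0.17, adjusted p = 0.0213). Without mouse 4 the fall was 0.38 on the log2 scale. At 5 days it was at 234 ± 46.6 CPM (0.42, SE 0.14, adjusted p = 0.0242), a call that was lost in 3 of 10 fits without a mouse and on scaling by library size alone.

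Gsta3 (ENSMUSG00000025934, chr1:21240589-21265661, + strand), another alpha-class enzyme, was near the limit of detection. It had 2.9, 2.34, 4.58, 3.79 and 2.37 CPM in the controls and 1.27, 1.21, 1.39, 0.804 and 1.45 CPM at 4 days, where all 5 mice were lower (log2 fold change -1.36, SE 0.33, adjusted p = 0.00325). At 5 days it had 1.72, 5.88, 2.4, 3.15 and 3.39 CPM, which spanned the controls (0.05, SE 0.34, adjusted p = 0.923). The 4 day call rests on 4 to 8 counts a mouse.

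Gstp1 (ENSMUSG00000060803, chr19:4035407-4037985, - strand), the pi-class enzyme, was the only transferase apart from Mgst1 to be called higher than control. It had 0.968, 2.53, 0.873, 1.15 and 1.82 CPM in the controls and 4.52, 3.92, 3.28, 3.74 and 3.79 CPM at 5 days, with no overlap (log2 fold change 1.36, SE 0.33, adjusted p = 0.00316). At 4 days it had 2.17, 1.38, 2.43, 6.43 and 3.25 CPM (1.05, SE 0.43, adjusted p = 0.0624). At 6 hours to 3 days, where it did not pass the filter, the exact permutation p was between 0.119 and 1. Of its 3′ words 71.9% also occur in Gstp2 or Gstp-ps, so these counts may be split between the copies.

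The comparison of 5 days with 6 hours does not use the controls. Of 35 members tested 8 were higher and 8 lower at 5 days (edgeR), 22.9% each way, with a median log2 fold change of -0.01. Among all genes 19% were higher and 16.9% lower (35.8% in either direction), so the counts say little particular of the members. Scaled by library size alone the counts were 7 and 11. Lower at 5 days than at 6 hours were Hmox1 (log2 fold change -2.00, SE 0.25, adjusted p = 2.19e-06), Gpx3 (-1.95, SE 0.12, adjusted p = 4.41e-10), Gstm2 (-1.12), Mgst3 (-1.05), Srxn1 (-0.89, SE 0.11, adjusted p = 2.66e-06), Gclc (-0.66), Gpx8 (-0.59) and Nfe2l2 (-0.36). These were of 2 kinds: Hmox1, Srxn1, Gclc, Gpx8 and Nfe2l2 had been called higher at 6 hours, whereas Gpx3 and Mgst3 had not been called then and Gstm2 had been lower.

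Higher at 5 days than at 6 hours were Gstp1 (1.27, SE 0.37, adjusted p = 0.00999), Gsta4 (0.93, SE 0.22), Txnrd2 (0.75, SE 0.12, adjusted p = 6.24e-05), Prdx3 (0.70, SE 0.12, adjusted p = 8e-05), Mgst1 (0.51), Cat (0.44), Keap1 (0.34) and Sod1 (0.32). The mitochondrial pair Prdx3 and Txnrd2 thus differed between early and late cold in the same direction, with all 5 late mice above all 5 early mice for each gene. Txn2, the thioredoxin of that compartment, did not pass (-0.24, SE 0.09, adjusted p = 0.0514), though all 5 late mice were below the early ones. For Prdx1, Prdx6, Sod2 and Txnrd1 the difference was between -0.13 and 0.07, with standard errors of 0.10 to 0.11. The Keap1 call was lost with DESeq2, on scaling by library size alone, without the filter and in 5 of 10 fits without a mouse, and that of Sod1 in 2 such fits.

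**Figure D5:**
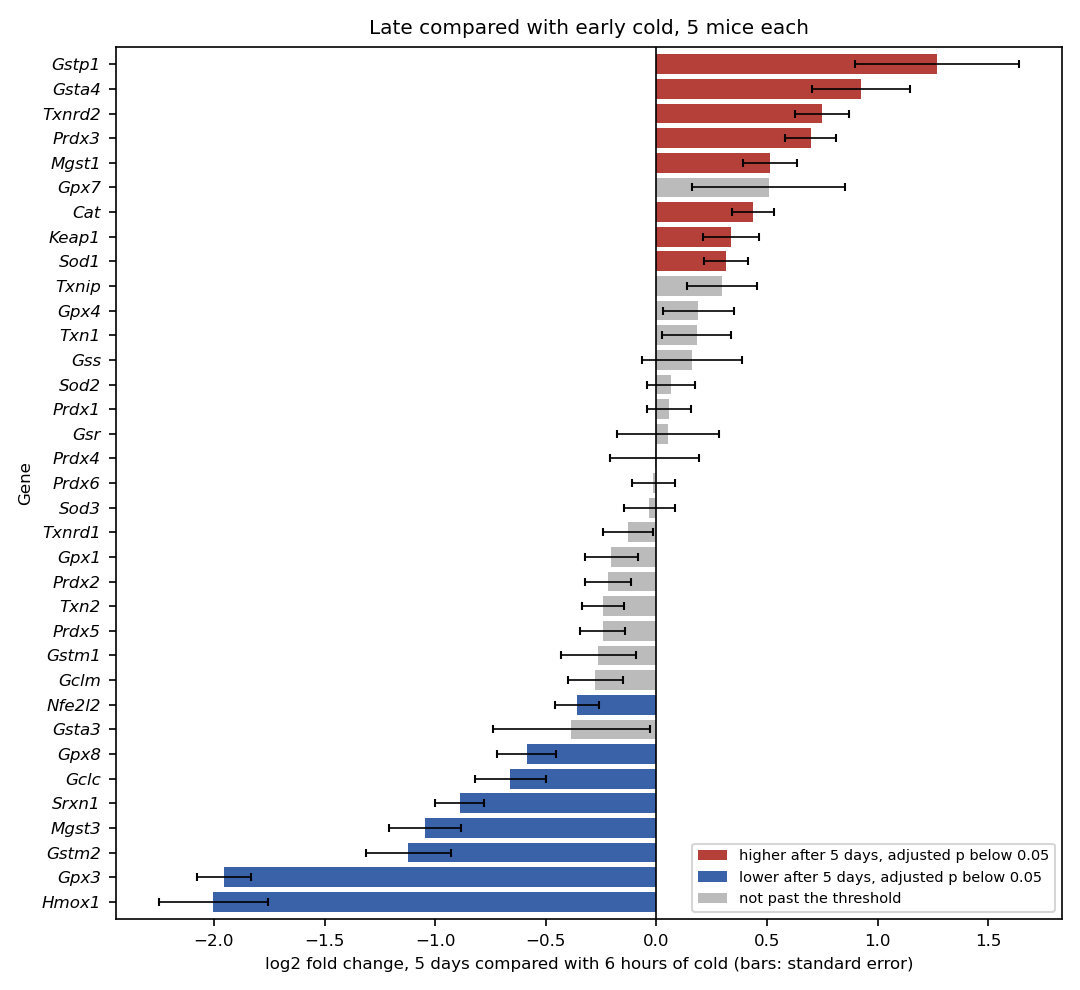
Log2 fold change (bars) with standard error (whiskers) between 5 days and 6 hours of cold for the 35 genes tested, 5 mice in each group, in order of size. Red and blue bars passed an adjusted p of 0.05. Hmox1 (-2.00) and Gpx3 (-1.95) are at the lower end and Gstp1 (1.27) at the upper.

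By their highest group mean the members fell mainly into those highest at 6 hours (9, among them Hmox1, Srxn1, Gclm, Gclc, Gpx8 and Nfe2l2), at 1 day (6, among them Txn2, Txnrd1, Prdx6 and Sod3), at 5 days (10, among them Sod1, Sod2, Prdx3, Txnrd2, Gstp1 and Mgst1) and at room temperature (7: Gpx3, Prdx2, Prdx5, Txn1, Txnip, Gstm1 and Gstm2). Only 4 had their highest mean at 2, 3 or 4 days, and the matching counts of all genes are not given here. Neighbouring durations often did not differ beyond their spread, so these are descriptions of the means. In the F test over all 7 groups the members not called were Prdx4, Gss, Gsr and Keap1 (adjusted p = 0.626, 0.79, 0.475 and 0.068).

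Other genes of the same pathways were read from lists that partly overlap, and each is given by its calls at 6 hours and 5 days (edgeR, as above). Beside them stand the shares of all genes, 21.5% higher and 21% lower at 6 hours and 20.2% and 18.6% at 5 days. Counts near them, such as 4 higher and 3 lower of 14, say nothing particular of a list. Of 22 other enzymes of the same families 3 were higher and 10 lower at 6 hours, and 2 higher and 6 lower at 5 days. The largest falls were those of Txnrd3 (log2 fold change -1.68), a thioredoxin reductase best known from testis, and Gstt3 (-1.62) at 6 hours, and of the theta-class transferases Gstt1 (-1.92) and Gstt2 (-1.68) at 5 days. The glutaredoxin Glrx rose at both (1.09 and 0.97). Lower calls outnumbered higher ones in this list at both durations.

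Of 21 other NRF2 targets 5 were higher and 9 lower at 6 hours, and 11 higher and 5 lower at 5 days. At 6 hours the ferritin light chain Ftl1 (1.39) and the aldo-keto reductase Akr1b8 (1.20) rose most, and the carbonyl reductases Cbr1 (-1.76) and Cbr3 (-1.48) fell most. At 5 days Trib3 (1.97), a pseudokinase also raised by other stress pathways, and Ftl1 (1.95) were highest and the biliverdin reductase Blvrb (-1.27) lowest. At 6 hours, the time of the highest Hmox1, Srxn1 and Gclm, the list as a whole had more lower than higher calls and a median of -0.19.

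Genes that supply NADPH had 2 higher and 3 lower calls of 12 at 6 hours and 5 higher and 1 lower at 5 days. The folate enzyme Mthfd2 was higher at both (1.33 and 2.70) and malic enzyme Me1 at 5 days (1.86), while the isocitrate dehydrogenases Idh1 (-1.19 at 6 hours) and Idh2 (-1.11 at 5 days) were lower. Of 14 genes of glutathione turnover and export 4 were higher and 3 lower at both durations. Slc3a2, the heavy chain of the cystine and amino acid exchangers, rose most (2.59 and 2.35), and Slc25a39, which carries glutathione into mitochondria, rose by 0.72 and 1.38.

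Several of the glutathione peroxidases, and the thioredoxin reductases, depend on selenoprotein synthesis. A list of genes for that synthesis and for the transport or binding of selenium had 3 of 9 higher and 3 lower at 6 hours. At 5 days 2 of 10 were higher and 1 lower. Secisbp2, which reads the selenocysteine signal, rose at 6 hours (0.91). Selenbp1, which binds selenium but has no known part in that synthesis, fell most (-2.16 and -1.52). It was the only gene of the list called lower at 5 days. Of 6 metallothionein and iron genes 1 was higher and 1 lower at 6 hours and 4 higher and 1 lower at 5 days. At 5 days Mt2 was at 0.85 and Tfrc at -0.85, beside the larger rise of Ftl1 given above. Of the NADPH oxidase genes, which make superoxide in phagocytes, 2 of 4 were lower at 6 hours (Rac2 at -2.00 and Cybb at -1.22), and 1 of 4 was higher at 5 days (Cyba at 0.77). At 1 and 2 days 0 of 3 were higher, at 3 days 3 of 5 and at 4 days 2 of 5, with none lower. The shares of all genes higher at 1 to 4 days were 18.9%, 16.4%, 18.3% and 19.4%.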

How the data were processed

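iBAT RNA of 35 male mice, 5 in each of 7 groups, was made into QuantSeq 3′ FWD libraries and sequenced with 76-base reads on an Illumina NovaSeq. Reads were aligned with STAR 2.6.1d to GRCm38 and counted per gene with HTSeq 0.11.2, tools named in the submitters' processing notes. The authors deposited these counts as a single table of whole numbers, without normalization. Whether the counting used strand is not given in the sources used here. All 35 columns could be assigned to their mice from the column names, and groups were taken from the labels.

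Mice of each duration were set against those at room temperature, and 5 days against 6 hours, in fits of 10 mice with edgeR 4.0.16 in R 4.3.3 (TMM factors, filterByExpr, quasi-likelihood test, adjusted p below 0.05), and all 7 groups in a quasi-likelihood F test. Each fit and its adjustment covered every gene that passed the filter. Members that did not pass were compared by an exact permutation test, two-sided, on log2 CPM with a prior count of 2. Members given mouse by mouse were those with a call and an absolute log2 fold change of at least 1 in a comparison with room temperature, and Nfe2l2 and Keap1 whatever their values; the counts of Nqo1 are given because it could not be tested. Other members are given by mean and SD or range, and other lists by their counts of calls with at most the 2 largest called changes in each direction. The 36 members and all other lists were chosen with earlier results of these data known.

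Alternatives were DESeq2 1.42.0, RLE size factors, library size alone, counts without mitochondrial genes and Gm42418, no count filter, all groups in a single fit, the replicate number as a block, and the omission of each mouse in turn. Depth was 3846016 to 6047247 counts a mouse, so that a gene near 1 CPM rests on a few reads. Coordinates are GENCODE M21 on GRCm38, and promoter windows are RefSeq on GRCm38.p6. Shared words are 76-base stretches within 400 bases of a transcript's 3′ end that another gene also holds. The statistics were tested on simulated counts. Figures were drawn with matplotlib 3.10.9 in Python 3.11.15.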

Additional observations from a re-analysis of the deposited data

Results flagged for a closer look

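Of the sets of 5 mice checked (36 genes in 7 groups), 23 held a highest or lowest mouse whose gap to its nearest neighbour was over 0.71 of the set's range, where chance alone gives about 5%. Mouse 4 at 1 day was set apart for Txnip (152 CPM) and Mgst1 (65.7 CPM), both low. Its library is the smallest of the series and also held a single count of Mgst3, and the report gives these genes with and without it. Mouse 4 at 2 days was high for Gpx1 (524 CPM) and Gpx3 (620 CPM), and mouse 2 at 5 days was high for Gpx1 (571 CPM), Gpx3 (376 CPM) and Gstm1 (112 CPM). Mouse 3 at 3 days was low for Sod3 (75.5 CPM) and high for Srxn1 (48.2 CPM) and Txnrd1 (97.7 CPM), and in the same group mouse 2 was high for Txnrd2 (54.3 CPM) and mouse 5 for Gstm1 (106 CPM).

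After 6 hours mouse 4 was low for Srxn1 (56 CPM) and Prdx3 (56.7 CPM), and mouse 5 was low for Gclc (20.4 CPM) and high for Prdx2 (127 CPM). In that group Nqo1 was read only in mouse 2 (0.232 CPM, a single count). At 5 days mouse 1 was low for Gclm (33.4 CPM) and Nfe2l2 (58.8 CPM) and high for Hmox1 (7.54 CPM). The remaining values were a low Sod2 in mouse 3 at 4 days (571 CPM), a high Gpx7 in mouse 3 at room temperature (6.98 CPM) and a high Gpx8 in mouse 3 at 1 day (53.7 CPM).

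For 16 of the 35 members tested the effect of cold differed between 5 days and 6 hours in the direct test of the groups (edgeR, adjusted p below 0.05, 5 mice against 5). Of all genes tested 35.8% were called there in either direction. The log2 fold change was positive for Gstp1 (1.27), Gsta4 (0.93), Txnrd2 (0.75), Prdx3 (0.70), Mgst1 (0.51), Cat (0.44), Keap1 (0.34) and Sod1 (0.32). It was negative for Hmox1 (-2.00), Gpx3 (-1.95), Gstm2 (-1.12), Mgst3 (-1.05), Srxn1 (-0.89), Gclc (-0.66), Gpx8 (-0.59) and Nfe2l2 (-0.36). No cause was tested for any of these values.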

How the results depend on the processing

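Of 132 calls of single members over the 7 comparisons, 127 were kept with DESeq2, 132 with RLE size factors, 132 without mitochondrial genes and Gm42418, 116 on scaling by library size alone, 121 without the count filter and 125 with all groups in a single fit, and no sign changed. Library size alone ended the calls of Sod2 (all durations but 4 days), Sod3 (4 and 5 days), Sod1 and Mgst1 (5 days), Gclc (6 hours), Nfe2l2 (6 hours and 1 day), Gclm (1 day), Gpx7 and Txnrd2 (3 days) and Keap1 (5 days against 6 hours). Without the count filter the calls lost were Cat, Gclc and Gstm2 (6 hours), Sod1 and Nfe2l2 (1 day), Sod2 (3 days), Gpx8 and Txn1 (4 days), Sod1 and Prdx5 (5 days) and Keap1 (5 days against 6 hours), in a single fit Gclc, Gstm2 and Txnip (6 hours), Gpx1, Gpx8 and Txn1 (4 days) and Gstm1 (5 days), and with DESeq2 Gstm2 (6 hours), Gpx8 (3 and 4 days), Txn1 (4 days) and Keap1 (5 days against 6 hours). On scaling by library size alone the share of higher genes among all calls fell, for example from 50.6% to 28.3% at 6 hours. The 4 members lower at 6 hours became 9 on scaling by library size alone, 2 without the count filter, 2 with all groups in a single fit and 1 to 5 on leaving out a mouse (1 without mouse 4 at 6 hours, and 2 without mouse 2 at 6 hours or room temperature mouse 3 or 4). The other counts of members called stayed within 1.5 times. The cause of these shifts was not tested. Same-numbered mice did not deviate together (correlations -0.17 to 0.14), and the main fits did not pair mice by number. Such correlations cannot exclude that mice of the same number shared some step. With a replicate block 127 calls were kept, those of Nfe2l2 (1 day), Sod2 and Gpx7 (3 days) and Gpx8 and Txn1 (4 days) being lost.

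Leaving out each mouse in turn kept a call in 1220 of 1320 fits. The range of log2 fold changes and the mice (m; RT, room temperature) without which the call was lost were as follows. At 6 hours Cat ranged from -0.30 to -0.22 (RT m1, cold m2, m4, m5), Gclc from 0.29 to 0.42 (RT m2, m3, cold m1 to m4), Gstm2 from -0.37 to -0.25 (RT m3 to m5, cold m2 to m4) and Keap1 from -0.38 to -0.23 (RT m1, m3, m4, cold m3, m4). At 1 day Mgst1 ranged from -0.62 to -0.38 (RT m3) and Nfe2l2 from 0.26 to 0.37 (RT m1, m2, m4, m5, cold m1 to m3). At 2 days Gpx1 ranged from -0.57 to -0.37 (cold m2, m3, m5), Gpx8 from -0.81 to -0.45 (RT m1, m4, cold m2, m3) and Gsta4 from -0.79 to -0.52 (RT m1, m4, cold m2). At 3 days Sod2 ranged from 0.24 to 0.31 (RT m4, m5, cold m2), Gpx7 from 0.66 to 1.05 (RT m1, m2, m4, m5, cold m1, m4, m5), Gpx8 from -0.67 to -0.35 (RT m1, m3 to m5, cold m1, m3, m4) and Txnrd2 from 0.32 to 0.57 (RT m2 to m5, cold m2). At 4 days Sod3 ranged from 0.31 to 0.49 (RT m2, m4, m5), Gpx8 from -0.39 to -0.24 (RT m1, m4, cold m1 to m3) and Txn1 from -0.39 to -0.24 (RT m2, m5, cold m2, m4, m5). At 5 days Sod1 ranged from 0.24 to 0.32 (RT m2, m4, m5, cold m3, m4), Prdx5 from -0.33 to -0.24 (RT m1, m2, cold m1, m3, m5), Gstm1 from -0.64 to -0.38 (RT m3, m4, cold m1, m3 to m5) and Mgst1 from 0.33 to 0.53 (RT m4, cold m3, m4). Between 5 days and 6 hours Sod1 ranged from 0.27 to 0.36 (6 hours m2, 5 days m3) and Keap1 from 0.24 to 0.39 (6 hours m2 to m4, 5 days m1, m2). The F test over 7 groups called 31 members, 30 to 32 on leaving out a mouse. Depth limited Nqo1, Gstp1 and Gsta3, which had at most 32 counts in any mouse. For Hmox1 it was limiting mainly at room temperature (3 to 8 counts), 1 day (3 to 17) and 2 days (3 to 45). At 6 hours Hmox1 had 71 to 145 counts.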
